A study of Vitis vinifera with 6 samples.

Results

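The xyloglucan endotransglucosylase/hydrolase (XTH) cluster of grapevine examined here is a run of neighbouring loci on chromosome 11, between VIT_11s0052g01180 and VIT_11s0052g01300. Its 10 members were taken by their locus identifiers and not by a measured value, though earlier results of these data were known when they were chosen. All 10 were present among the 34369 features of the array, each with 1 probe. In the study's tables VIT_11s0052g01180 was annotated as XTH23 and VIT_11s0052g01220 as xyloglucan endotransglycosylase 6. The other members were taken as XTH genes only because the list of locus identifiers that defined the cluster holds them. Their annotation could not be checked here. Probe and gene sequences and genome coordinates of the members were not used here, so none are shown, and how far a probe of one copy also binds transcripts of another was not tested.

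The study asked which genes respond when NAC61, a NAC family transcription factor gene of grapevine, is overexpressed. Plantlets of Vitis vinifera cv. Thompson Seedless, grown in vitro at 25 °C with 16 h of light, were infiltrated under vacuum with Agrobacterium tumefaciens C58C1. The labels give the plants as 6 weeks old, and the study's methods give a lower age at infiltration. In the OX.NAC61 group the bacteria carried NAC61 under the constitutive 35S promoter in the vector pK7WG2, and in the control group the same vector with a non-coding sequence, so both groups had been exposed to the bacteria and to the infiltration. Young leaves were taken 7 days later and hybridised to 1-colour Agilent arrays, with 3 arrays per group. Per the study's methods each array held RNA of a different plant, and the OX.NAC61 plants were those with the strongest NAC61 overexpression. The p-values therefore measure the spread between these selected plants, which includes that between their arrays. The overexpression was transient and the RNA came from whole leaves, in which transformed and untransformed cells are mixed. A lower signal from fewer cells of a type and from less RNA per cell cannot be told apart.

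Xyloglucan is the main hemicellulose of the primary wall in plants such as grapevine, where it coats and tethers cellulose microfibrils. XTH enzymes cut a xyloglucan chain and rejoin it to another chain or to water, and through this they take part in wall loosening, wall assembly and cell expansion. Plant genomes hold many XTH genes, often in tandem copies, and several members in Arabidopsis are known for responses to hormones, touch and growth conditions.

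Values are given as scaled log2 signal, which is the log2 background-subtracted signal of the probe minus the 75th percentile of its array. A value of 0 is therefore the level of a bright probe, and negative values lie below it. Values are listed in the order of replicates 1, 2 and 3. Probes differ in binding, so levels were compared between arrays for 1 probe and never between members. A feature was called when the limma adjusted p was below 0.1 and the fold change above 1.5, the thresholds of the study's methods.

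Before scaling, control replicate 3 was the dimmest array (75th percentile of signal 889) and OX.NAC61 replicate 2 the brightest (2569). NAC61 (VIT_08s0007g07640) read -2.48, -2.21 and -2.44 in controls and -1.15, -0.66 and -0.47 in OX.NAC61, a log2 fold change of 1.62 (SE 0.21, limma adjusted p = 0.0285), which missed the threshold without control replicate 2 (limma adjusted p = 0.125) or 3 (limma adjusted p = 0.105). It also missed it with scan day as a block (1.23, limma adjusted p = 0.198), slide as a block (limma adjusted p = 0.104) and normexp (0.88, limma adjusted p = 0.256). Leaf genes fixed as markers of the tissue (photosystem, antenna and Rubisco genes) were well above background, and 8 of 9 were called lower in OX.NAC61, with a median log2 fold change of -0.99. Over all 27052 features tested, 1007 were called lower. The markers were chosen with earlier results of these data known, so their direction is not independent evidence. All 9 stayed below 0 in every alternative fit, but none was called with scan day or slide as a block, with normexp, or without control replicate 2, control replicate 3 or OX.NAC61 replicate 3. Their part in the values of the cluster was not tested. The headers put the scans of the controls and of OX.NAC61 replicate 1 on a first day, and those of the other OX.NAC61 replicates on a second.

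No difference between OX.NAC61 and control leaves was detectable in the cluster at this spread between arrays. None of the 9 members that could be tested was called, against 6.81% of all 27052 features tested. None had an unadjusted limma p below 0.05, which 20.4% of all features did, and in none did the 3 OX.NAC61 arrays lie wholly above or wholly below the 3 control arrays, which 26.2% of the features measured on all arrays did. The median log2 fold change of the 9 members was -0.06, close to the -0.05 of all features, with 2 members above 0 and 7 below. Limma adjusted p-values ran from 0.676 to 0.989. The members differed strongly between arrays of a group, and most of them did so on the same arrays. Each array held a different plant, so differences between plants and between arrays cannot be told apart.

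**Figure D1:**
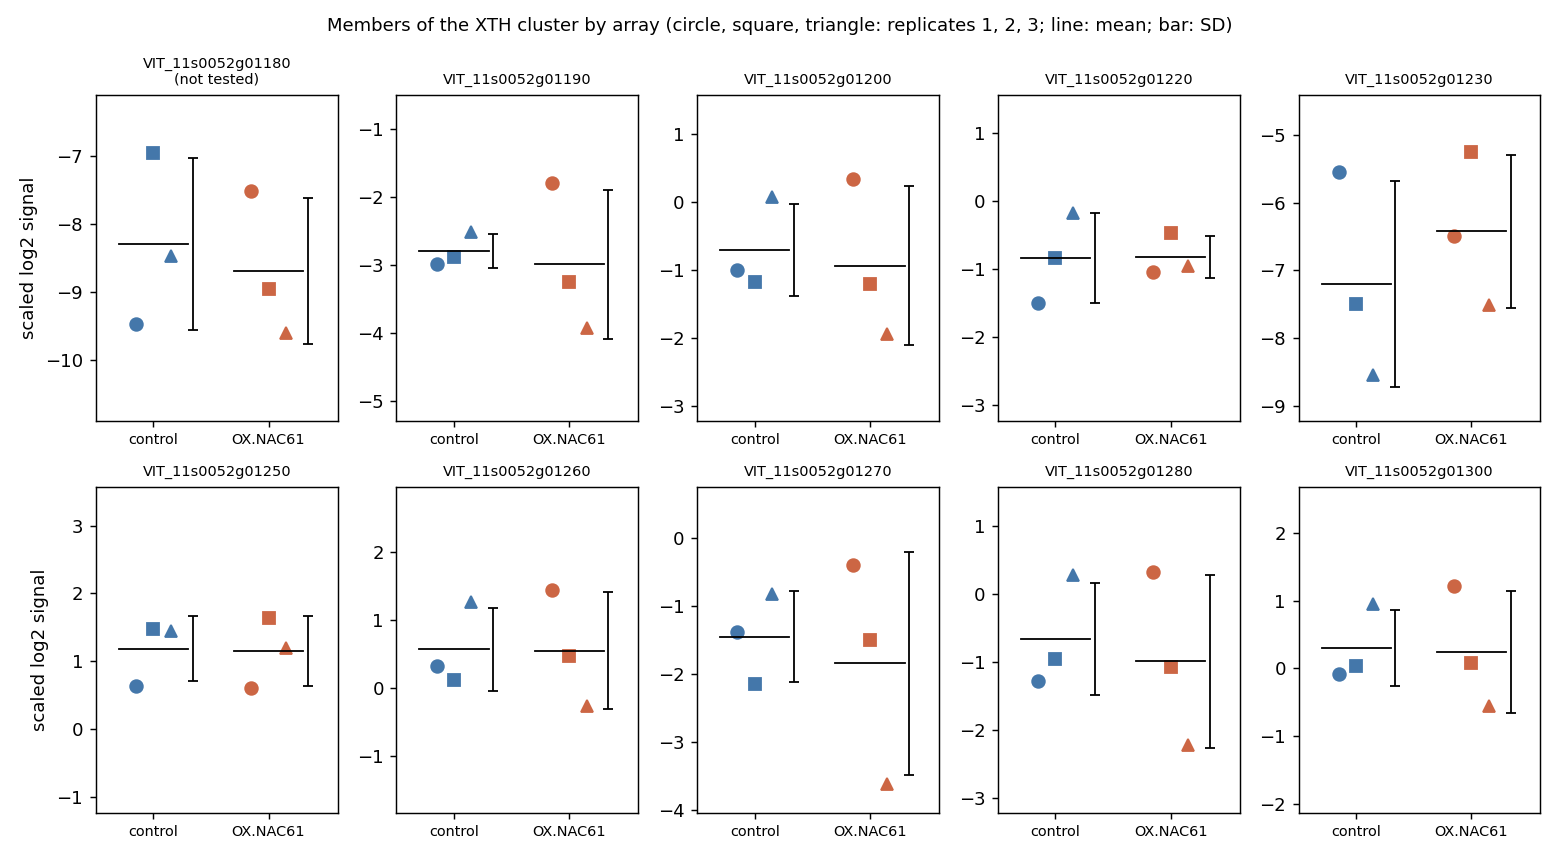
Scaled log2 signal (vertical axis, with the same span in every panel) of the 10 members on the 3 control arrays (blue) and the 3 OX.NAC61 arrays (orange), with circle, square and triangle for replicates 1, 2 and 3, a line at the group mean and a bar of 1 SD. In 6 panels (the first 2 loci after VIT_11s0052g01180, and the last 4) the OX.NAC61 circle lies above and the OX.NAC61 triangle below all control points.

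The widest spread among well measured copies was that of VIT_11s0052g01270. It read -1.38, -2.15 and -0.82 in controls and -0.40, -1.51 and -3.63 in OX.NAC61. OX.NAC61 replicate 1 was above all controls, replicate 2 was among them and replicate 3 was below them, so that the first exceeded the last 9.38-fold. The group means, -1.45 ± 0.67 (SD, n = 3) in controls and -1.84 ± 1.64 (SD, n = 3) in OX.NAC61, differed by less than either spread. The log2 fold change was -0.39 (SE 0.82, 95% interval -2.36 to 1.58, limma adjusted p = 0.838), and as a ratio of OX.NAC61 to control the interval ran from 0.194 to 2.996, so neither a large fall nor a large rise can be told from no change at this spread.

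VIT_11s0052g01280, its neighbour, behaved alike. The control arrays read -1.28, -0.96 and 0.28 and the OX.NAC61 arrays 0.32, -1.07 and -2.22. Control replicate 3 was nearly as high as OX.NAC61 replicate 1, while OX.NAC61 replicate 3 was the lowest of all arrays. The log2 fold change was -0.34 (SE 0.70, 95% interval -2.03 to 1.36, limma adjusted p = 0.837), and the gap between OX.NAC61 replicates 1 and 3 was 5.82-fold.

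VIT_11s0052g01200 read -1.001, -1.18 and 0.07 in controls and 0.34, -1.21 and -1.95 in OX.NAC61. Again control replicate 3 and OX.NAC61 replicate 1 were the high arrays, and OX.NAC61 replicate 3 the low one, 4.88-fold below replicate 1. The difference between groups was -0.23 on the log2 scale (SE 0.63, 95% interval -1.75 to 1.28, limma adjusted p = 0.877). VIT_11s0052g01190, the locus before it, read -2.98, -2.88 and -2.51 in controls and -1.79, -3.25 and -3.93 in OX.NAC61. Its control arrays were close together, with an SD of 0.25, and the OX.NAC61 arrays were spread on both sides of them with an SD of 1.09. The log2 fold change was -0.20 (SE 0.53, 95% interval -1.47 to 1.07, limma adjusted p = 0.873).

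VIT_11s0052g01260 read 0.32, 0.13 and 1.27 in controls and 1.45, 0.48 and -0.26 in OX.NAC61. VIT_11s0052g01300, the last member of the cluster, read -0.08, 0.04 and 0.95 in controls and 1.21, 0.08 and -0.55 in OX.NAC61. In both genes OX.NAC61 replicate 1 and control replicate 3 were the 2 highest arrays, and OX.NAC61 replicate 3 was the lowest. The log2 fold change of VIT_11s0052g01260 was -0.02 (SE 0.50, 95% interval -1.22 to 1.18, limma adjusted p = 0.988). That of VIT_11s0052g01300 was -0.06 (SE 0.50, 95% interval -1.26 to 1.14, limma adjusted p = 0.964). Their fold gaps between OX.NAC61 replicates 1 and 3, 3.27 and 3.39, were the smallest of these 6 copies.

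VIT_11s0052g01220, annotated as the xyloglucan endotransglycosylase 6, varied differently. It read -1.50, -0.84 and -0.18 in controls and -1.05, -0.47 and -0.97 in OX.NAC61. All OX.NAC61 arrays lay inside the range of the controls, with a mean of -0.84 ± 0.66 (SD, n = 3) in controls and -0.83 ± 0.31 (SD, n = 3) in OX.NAC61. The difference on the log2 scale was 0.01 (SE 0.35, limma adjusted p = 0.989), and the 95% interval of the ratio of OX.NAC61 to control ran from 0.559 to 1.82. VIT_11s0052g01250 gave the narrowest interval of the cluster, from 0.549 to 1.73 as a ratio. Its control arrays read 0.63, 1.48 and 1.45 and its OX.NAC61 arrays 0.61, 1.64 and 1.20, with a log2 fold change of -0.04 (SE 0.34, limma adjusted p = 0.966). In both genes replicate 1 was the lowest array of each group, as it was for 15.4% of all features measured on every array, so that the OX.NAC61 plant with the highest signal for the 6 copies above had the lowest for these.

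The remaining members were dim. VIT_11s0052g01230 passed the background limit on 1 control and 2 OX.NAC61 arrays, and read -5.55, -7.50 and -8.54 in controls and -6.50, -5.26 and -7.51 in OX.NAC61. The groups overlapped widely, and the log2 fold change of 0.77 (SE 0.87, 95% interval -1.33 to 2.88, limma adjusted p = 0.676) carried the largest error of the cluster. With normexp, another background correction, it was -1.61. VIT_11s0052g01180, annotated as XTH23, was well above background on 1 array, OX.NAC61 replicate 1, and on no control array. It was therefore not tested, and its processed signal there was 9.70 against 2.28, 10.8 and 2.51 on the control arrays, of which replicate 2 was higher. VIT_11s0052g01180 and VIT_11s0052g01220 were also the 2 members that the study lists as co-expressed with NAC61 in public data of other experiments.

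**Figure D2:**
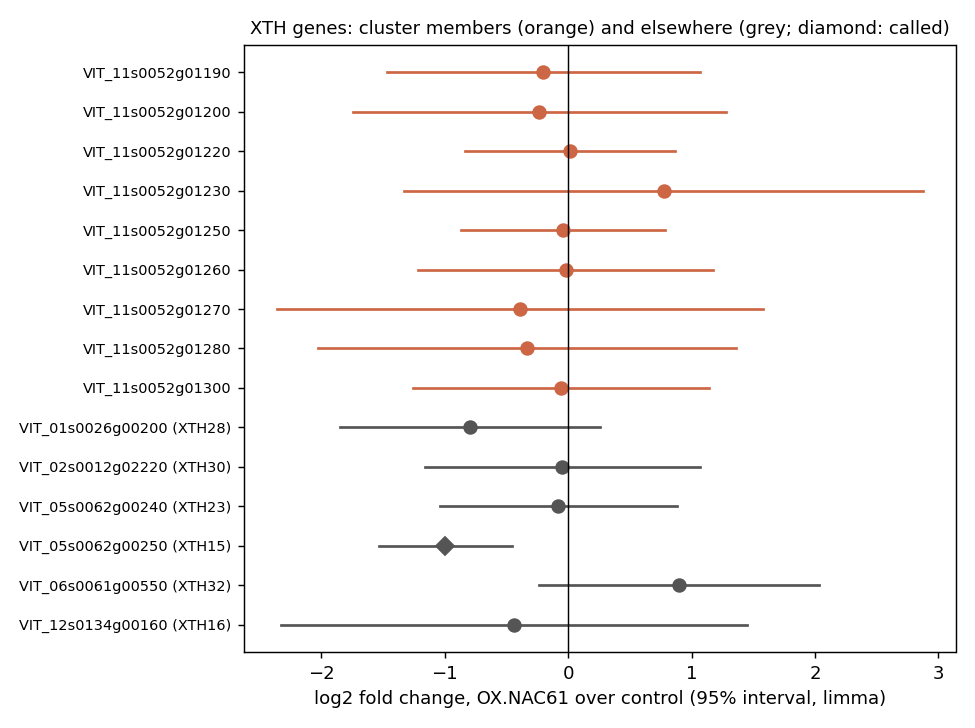
Log2 fold change of OX.NAC61 over control (horizontal axis, points) with 95% limma interval (lines) for the 9 tested members of the cluster (orange) and the 6 tested XTH genes elsewhere in the genome (grey). All 9 intervals of the cluster include 0, and the 1 called gene, XTH15 at -0.997, is drawn as a diamond.

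The spread between arrays of the same group was larger in the cluster than in most features. The median residual SD between arrays of a group was 0.79 on the log2 scale over the 9 tested members and 0.25 over all features. In 7 of 9 members it exceeded the 90th percentile of all features, 0.67. The highest were VIT_11s0052g01230 (1.34, percentile 99.0), VIT_11s0052g01270 (1.25, percentile 98.6) and VIT_11s0052g01280 (1.07, percentile 97.3), and the lowest were VIT_11s0052g01220 (0.52, percentile 82.1) and VIT_11s0052g01250 (0.50, percentile 80.8). Of the high values, that of VIT_11s0052g01230 came from a probe near background. The members are neighbouring copies measured on the same 6 arrays, so these counts are not independent of each other. A wide spread was not particular to the cluster. Over the 6 tested XTH genes elsewhere the median residual SD was 0.67, and 3 of them exceeded the 90th percentile. The widest of these was XTH16 (VIT_12s0134g00160), at 1.20 (percentile 98.3).

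**Figure D3:**
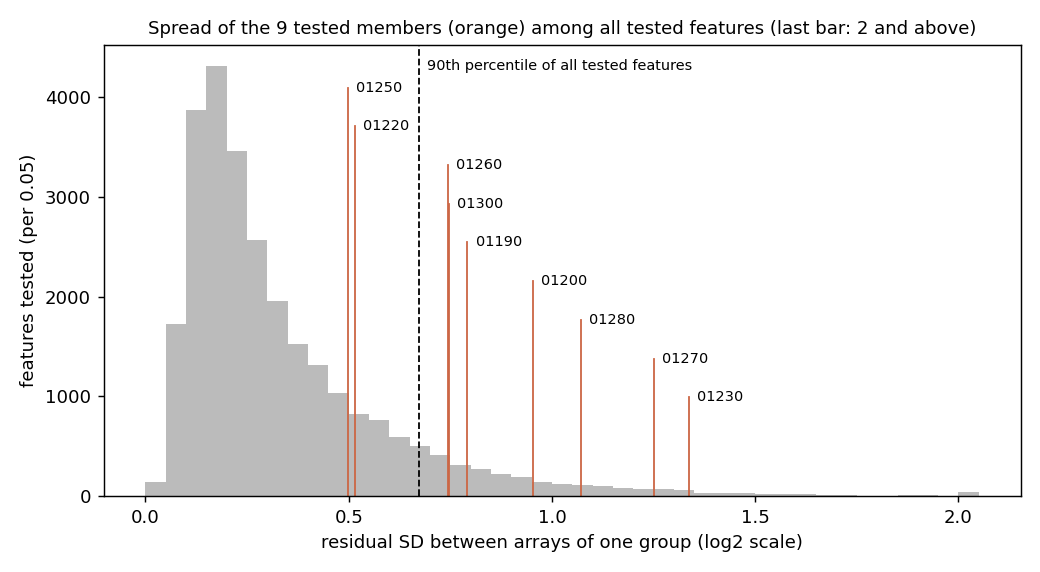
Number of tested features (vertical axis) by residual SD between arrays of one group on the log2 scale (horizontal axis), with the 9 tested members as orange lines labelled by the end of their locus number and the 90th percentile of all features, 0.67, as a dashed line. Lines differ in height only to keep the labels apart, and 7 of the 9 lie to the right of the dashed line.

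The 6 copies with the shared pattern were VIT_11s0052g01190, VIT_11s0052g01200, VIT_11s0052g01260, VIT_11s0052g01270, VIT_11s0052g01280 and VIT_11s0052g01300. In each, OX.NAC61 replicate 1 exceeded every control array and OX.NAC61 replicate 3 was below every control array, a pattern seen in 5.38% of all features measured on all arrays. In the same 6 of 9 members the OX.NAC61 arrays fell in the order replicate 1, 2, 3 from high to low, as in 18.1% of all features. In all 6 control replicate 3 was also the highest control array, and both orders together were found in 4.88% of all features. OX.NAC61 replicate 1 was over 2-fold above replicate 3 in 7 of 9 members, and in 9.81% of all features. The seventh, VIT_11s0052g01230, was just past this limit (2.02-fold) and not well above background on replicate 3, so the count rests on the 6. The order was noticed in these arrays and not tested, and replicates carry no order of their own. Taken against the mean of the controls, OX.NAC61 replicate 1 was higher by 0.87 to 1.06 on the log2 scale in the 6 copies. OX.NAC61 replicate 2 lay between -0.50 and -0.06 from that mean, and replicate 3 between -2.17 and -0.84.

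The 6 copies thus stood apart together on single arrays, high on OX.NAC61 replicate 1 and control replicate 3 and low on OX.NAC61 replicate 3. The median of the 9 tested members per array was -1.28, -0.96 and 0.07 in controls and 0.32, -1.07 and -1.95 in OX.NAC61, a range within the OX.NAC61 group larger than any difference between the group means of a member. On the NAC61 probe, OX.NAC61 replicate 1 was the lowest of its group and replicate 3 the highest, so the plant with the lowest NAC61 signal of the group had the highest signal of the 6 copies. With 3 plants this was not tested. OX.NAC61 replicate 1 was also the only OX.NAC61 array scanned with the controls. By the headers the high arrays, OX.NAC61 replicate 1 and control replicate 3, shared both scan day and slide. The low array, OX.NAC61 replicate 3, was recorded on that slide too but on the other day, a record that may hold an error. The part of scan day and slide in the pattern was not tested. Control replicates 1, 2 and 3 were scanned on the same day, and there the 6 copies spanned between 0.47 and 1.56 on the log2 scale. OX.NAC61 replicates 2 and 3 shared the second day. Replicate 2 was the higher in all 6, which the order common to these copies fixes in advance.

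The loci around the cluster were then read to see how far the pattern reached. Of 20 features between VIT_11s0052g01100 and VIT_11s0052g01400 that are not members, 15 were tested, and 5 of these had OX.NAC61 replicate 1 above and replicate 3 below all controls. Of these, 4 follow the last member directly, VIT_11s0052g01310, VIT_11s0052g01320, VIT_11s0052g01330 and VIT_11s0052g01340, and 1, VIT_11s0052g01170, lies just before the first. VIT_11s0052g01310 read -1.11, -1.56 and -0.27 in controls and 0.04, -1.70 and -2.47 in OX.NAC61. VIT_11s0052g01320 read -0.67, -0.65 and 0.57 in controls and 0.87, -0.51 and -1.35 in OX.NAC61. These values moved with the same arrays as the 6 XTH copies, and an annotation of VIT_11s0052g01310 and VIT_11s0052g01320 was not given in the sources used here. For none of the 5 is an annotation given here, so whether they are XTH copies themselves was not established. How far their probes also bind transcripts of the cluster was not tested.

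VIT_11s0052g01330 read -3.11, -3.18 and -3.00 in controls and -1.45, -3.12 and -3.59 in OX.NAC61. VIT_11s0052g01340 read -0.50, -0.66 and 0.31 in controls and 0.65, -0.51 and -1.39 in OX.NAC61. VIT_11s0052g01170, a dimmer probe, read -5.09, -5.45 and -4.29 in controls and -3.98, -5.27 and -7.37 in OX.NAC61. It passed the background limit on 2 of the 3 OX.NAC61 arrays, so no fold is given for its gap. None of the 5 was called, with limma adjusted p from 0.746 to 0.960.

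Farther out the pattern was not seen among the tested loci. In the 7 tested loci VIT_11s0052g01120 to VIT_11s0052g01140 and VIT_11s0052g01370 to VIT_11s0052g01400 no feature had the OX.NAC61 arrays on both sides of the controls in this way, and residual SDs lay between percentiles 4.35 and 53.1 of all features. The first tested locus of the interval, VIT_11s0052g01110, did not have the pattern either, but its residual SD was at percentile 90.4. The tested loci inside the cluster that are not members, VIT_11s0052g01210 and VIT_11s0052g01290, were spread at percentiles 85.6 and 84.7 and did not show it either, and neither did the XTH members VIT_11s0052g01220, VIT_11s0052g01230 and VIT_11s0052g01250 between them. The pattern therefore covered most, but not all, measured loci from VIT_11s0052g01170 to VIT_11s0052g01340. Among the 15 neighbours 2 were called. VIT_11s0052g01120 fell by 0.91 in log2 units (SE 0.16, limma adjusted p = 0.0449), but by 0.33 in the deposited values. VIT_11s0052g01110 passed the background limit on all OX.NAC61 arrays but no control. It thus entered the test only through the group where it was high, and its call is not independent evidence. On the processed signal it was at least 1.70-fold higher in OX.NAC61 (limma adjusted p = 0.0517), the bound being the mean of the OX.NAC61 arrays over the lowest signal that passed on the control arrays. This bound holds for that background correction only. The fitted value changed sign with normexp (-1.50) and with normexp and marked backgrounds replaced (-0.19). Neither neighbour was called without control replicate 2, control replicate 3 or OX.NAC61 replicate 3, where limma adjusted p-values lay between 0.125 and 0.195, and VIT_11s0052g01120 also not without control replicate 1 (limma adjusted p = 0.104) or OX.NAC61 replicate 2 (limma adjusted p = 0.112). Both calls were lost with normexp, with scan day as a block (limma adjusted p = 0.284 for VIT_11s0052g01110 and 0.318 for VIT_11s0052g01120) and with slide as a block (limma adjusted p = 0.125 and 0.157).

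**Figure D4:**
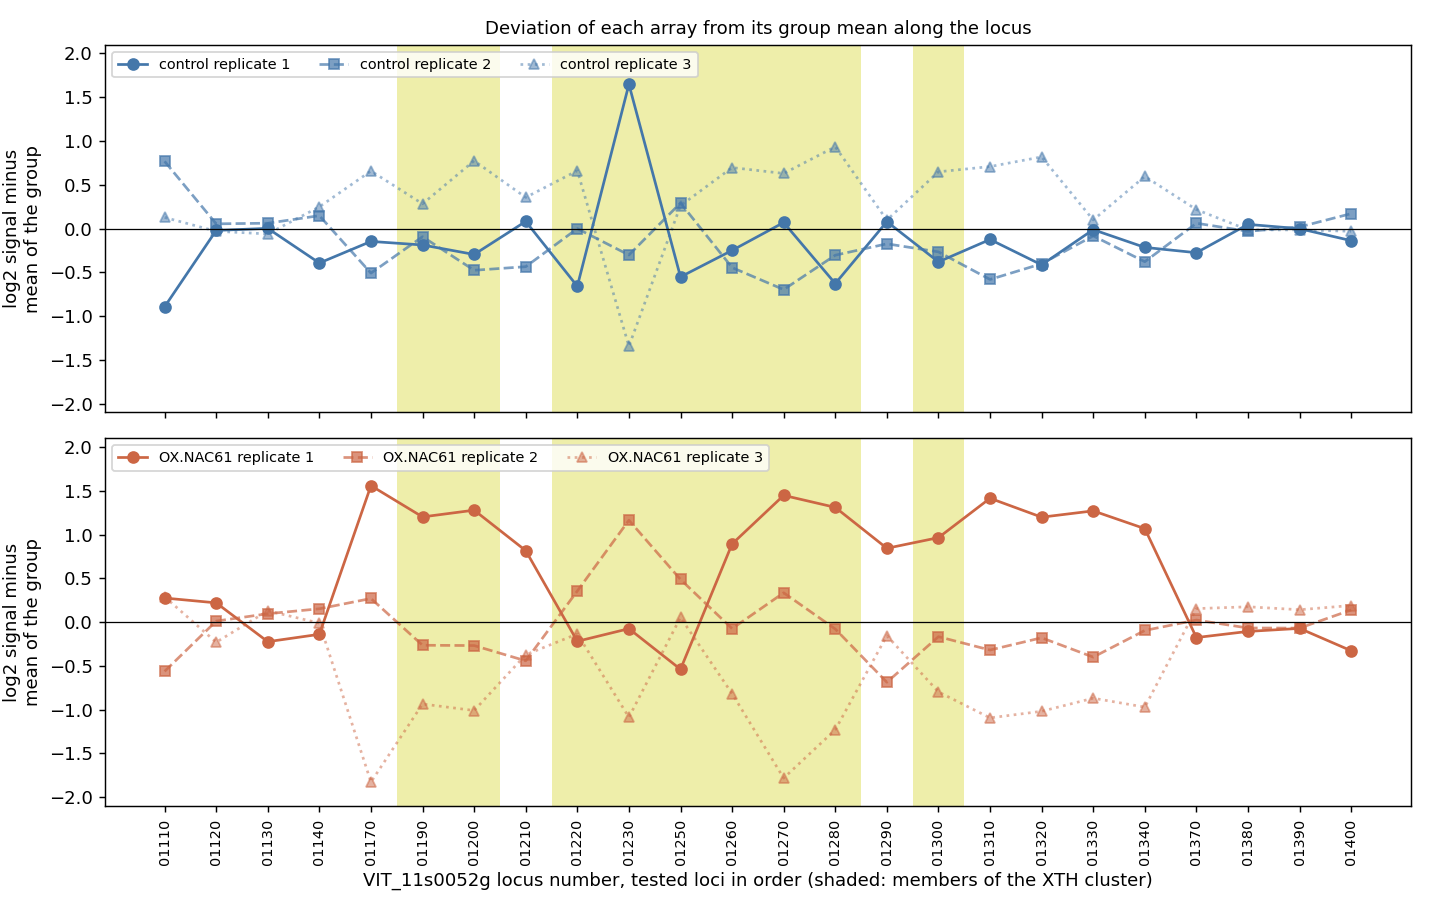
Log2 signal of each array minus the mean of its group (vertical axis) for tested loci in the order of their numbers (horizontal axis, not to scale in distance), with controls above, OX.NAC61 below and cluster members shaded. From VIT_11s0052g01170 to VIT_11s0052g01340 OX.NAC61 replicate 1 (circles) is mostly high and replicate 3 (triangles) mostly low. The circles are not high at the XTH members VIT_11s0052g01220, VIT_11s0052g01230 and VIT_11s0052g01250. The triangles are not the lowest at VIT_11s0052g01210, VIT_11s0052g01220, VIT_11s0052g01250 and VIT_11s0052g01290. The arrays lie together from VIT_11s0052g01370 to VIT_11s0052g01400.

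Other XTH genes were read from a list of 8 loci outside the cluster that the study's tables name, of which 6 were tested and 1 was called, lower. Their median log2 fold change was -0.26. XTH15 (VIT_05s0062g00250) read 2.95, 3.28 and 3.39 in controls and 2.58, 2.15 and 1.89 in OX.NAC61, without overlap. It fell by 0.997 in log2 units (SE 0.22, limma adjusted p = 0.0759). This gene entered the list because the study had called it on these arrays, so its direction is not independent evidence, and its call was lost with scan day as a block (-0.62, limma adjusted p = 0.456) and also when the slide was blocked (-1.14, limma adjusted p = 0.154). With 1 array left out it was called only in the absence of OX.NAC61 replicate 1, and otherwise the limma adjusted p lay between 0.106 and 0.257. Whether XTH15 and the cluster differ in response was not tested.

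The other tested XTH genes were not called. XTH30 (VIT_02s0012g02220) read 1.04, 2.30 and 2.16 in controls and 0.98, 2.20 and 2.16 in OX.NAC61, with replicate 1 lowest in both groups as in VIT_11s0052g01220 and VIT_11s0052g01250, and a log2 fold change of -0.05 (limma adjusted p = 0.971). XTH28 (VIT_01s0026g00200) read -1.19, -1.08 and -0.27 in controls and -0.85, -1.67 and -2.40 in OX.NAC61, with a log2 fold change of -0.79 (limma adjusted p = 0.371). Here control replicate 3 was high and OX.NAC61 replicate 3 low, as in the 6 cluster copies, but OX.NAC61 replicate 1 lay among the controls. XTH32 (VIT_06s0061g00550) had a log2 fold change of 0.90 (limma adjusted p = 0.349), XTH16 (VIT_12s0134g00160) of -0.44 (limma adjusted p = 0.805) and the XTH23 on chromosome 5 (VIT_05s0062g00240) of -0.08 (limma adjusted p = 0.935). XTR2 (VIT_16s0100g00170) passed the background limit on 0 arrays. The XTH23 on chromosome 10 (VIT_10s0003g02440) passed the background limit on 2 OX.NAC61 arrays but no control, and was not tested.

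Genes that make xyloglucan or trim it were taken from the same tables: the glucan backbone synthase CSLC, xylosyltransferase, β-galactosidases, endo-1,4-β-glucanases and xyloglucanase inhibitors. All 21 were tested, 1 was called higher and 2 lower, and their median log2 fold change was -0.05. A KORRIGAN endo-1,4-β-glucanase (VIT_00s0340g00050), of a family that acts in cellulose formation, rose by 1.004 (SE 0.16, limma adjusted p = 0.0379). A β-galactosidase (VIT_09s0002g02120), of a family that can remove galactose from side chains, fell by 0.96 (SE 0.19, limma adjusted p = 0.0577), and a xyloglucanase inhibitor (VIT_14s0128g00210), of a family that binds endoglucanases of microbes, fell by 2.25 (SE 0.38, limma adjusted p = 0.0423). All 3 were in the list because the study had called them on these arrays, so their directions are not independent evidence. None of the 3 was called with scan day or slide as a block, with normexp, or without control replicate 2, control replicate 3 or OX.NAC61 replicate 3, and the β-galactosidase was called with 1 array left out only in the absence of OX.NAC61 replicate 1. Over the 3 genes and those fits with 1 array left out, limma adjusted p-values of uncalled results lay between 0.105 and 0.214.

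The estimates for the cluster depended on which arrays entered the fit. Without OX.NAC61 replicate 1 the log2 fold change of VIT_11s0052g01270 was -1.11, and without replicate 3 it was 0.50. The corresponding pair was -0.99 and 0.28 for VIT_11s0052g01280, -0.87 and 0.27 for VIT_11s0052g01200, and -0.80 and 0.27 for VIT_11s0052g01190. For VIT_11s0052g01300 it was -0.54 and 0.34, and for VIT_11s0052g01260 -0.47 and 0.39. None of these passed the threshold, and leaving out a single array turned the sign of each of the 6 estimates. Without control replicate 3 the estimates of VIT_11s0052g01200 (0.15), VIT_11s0052g01260 (0.33), VIT_11s0052g01280 (0.13) and VIT_11s0052g01300 (0.26) were positive too. With scan day as a block the estimates rest on OX.NAC61 replicate 1 against the controls, and all 6 were positive (0.87 to 1.06). That sign was fixed in advance, because replicate 1 above all controls is part of the shared pattern. The order of the OX.NAC61 arrays was also found in the same 6 members after quantile normalisation, with normexp after marked backgrounds were replaced, and in the authors' own log2 values, which list 8 members. In these settings 13%, 16.2% and 12.9% of all features had it. The settings rest on the same scans, so they are not independent evidence. Normexp without that replacement was not tried for the order.

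**Figure D5:**
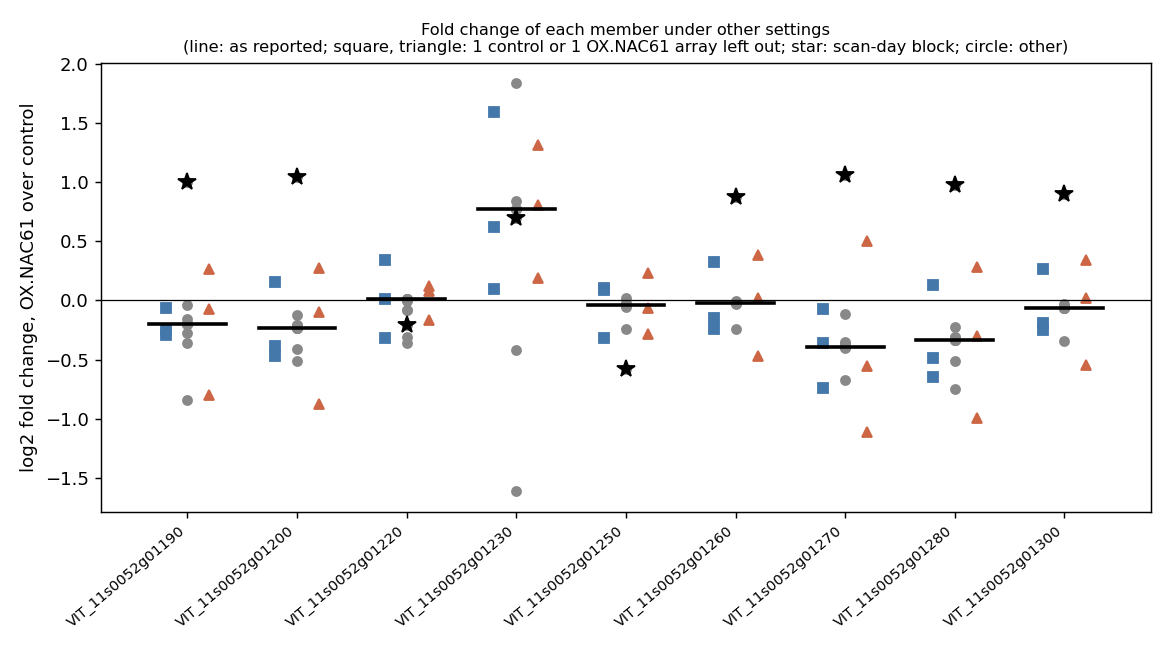
Log2 fold change of OX.NAC61 over control (vertical axis) of each tested member as reported (black line), with 1 control array (blue squares) or 1 OX.NAC61 array (orange triangles) left out, with scan day as a block (star) and under the other settings (grey circles). For the 6 copies with the shared pattern the triangles fall on both sides of 0. Their stars lie near 1, and a positive star is fixed by the pattern, in which OX.NAC61 replicate 1 lies above all controls. No member was called in any of these fits.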

How the data were processed

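The authors deposited 1 scanner file of spot intensity per array, written by Agilent Feature Extraction (version 10.5.1.1 in the headers), with a background-subtracted processed signal. They also deposited log2 values of 26157 probes, normalised between arrays, with limma named in the submitters' processing notes. After control spots were removed, the 75th percentile of each array was subtracted from its log2 processed signals. Values of spots with non-uniformity or population outlier marks were treated as missing in 81 features. The test took features that passed the scanner software's background limit on 3 or more arrays. Limma 3.58.1 in R 4.3.3 gave two-sided tests of 27052 features, from lmFit and eBayes with group as the only term and Benjamini-Hochberg adjustment over all of them. The number of arrays limits the precision, and an exact permutation test of 3 against 3 arrays cannot go below p = 0.1. The test was tried on simulated data.

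Members and gene lists were chosen with earlier results of these data known. Named were all members, NAC61, the other XTH genes, and the called genes among xyloglucan and neighbouring loci. The uncalled neighbours VIT_11s0052g01170, VIT_11s0052g01210, VIT_11s0052g01290 and VIT_11s0052g01310 to VIT_11s0052g01340 were named after their values were seen. Scan day and slide came from the file headers. Replicate numbers did not pair the arrays (correlations of same-numbered deviations 0.21, -0.04 and 0.21). Alternatives changed normalisation, background correction, filter, source of values, blocks, variance model, thresholds and arrays. No array identifier matched the reference gene table, so its names and coordinates were not used.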

Additional observations from a re-analysis of the deposited data

Results flagged for a closer look

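The XTH23 on chromosome 10 (VIT_10s0003g02440) stood out because its probe passed the background limit on 2 OX.NAC61 arrays but no control, although it was too dim to enter the test. Its processed signal, not scaled for the brightness of the arrays, was 11.1, 4.89 and 3.06 in controls and 28.3, 25.6 and 6.07 in OX.NAC61. On that signal OX.NAC61 replicate 3 lay within the controls. As scaled log2 signal it read -8.49, below the controls at -7.19, -8.085 and -8.18, while OX.NAC61 replicates 1 and 2 read -5.97 and -6.65. The difference between groups was not tested. Groups of 3 arrays are too small for a search for single outlying arrays.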

How the results depend on the processing

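No member of the XTH cluster was called under any of the 17 alternative fits or the other thresholds, where 119 of 151 estimates for members kept their direction and 32 did not. A changed filter, the replicate block, the intensity trend and the robust variance leave a member's estimate as it was. Part of the 119 was therefore fixed in advance, and the count does not measure stability. An unadjusted limma p below 0.05 was reached by 1 member in each of 3 settings: VIT_11s0052g01190 with scan day as a block and without OX.NAC61 replicate 1, and VIT_11s0052g01230 with the recorded slide as a block. Of all 27052 features, 2993, 6707 and 5081 reached it in these settings, in the same order. The single members are therefore not read as a result. With no control on the second day, the scan-day fit equals OX.NAC61 replicate 1 minus the control mean, a comparison also made directly after the data were seen. Both gave 0.9997 for VIT_11s0052g01190, 1.04 for VIT_11s0052g01200, -0.21 for VIT_11s0052g01220, 0.87 for VIT_11s0052g01260, 1.06 for VIT_11s0052g01270, 0.97 for VIT_11s0052g01280 and 0.90 for VIT_11s0052g01300, all of the other sign than reported. For the remaining members, which kept their sign, they gave -0.58 (VIT_11s0052g01250) and 0.70 (VIT_11s0052g01230), and the median over members was 0.90. In the copies with the shared pattern a positive value was fixed by that pattern, in which OX.NAC61 replicate 1 lies above all controls. VIT_11s0052g01220, near 0 throughout, read -0.0063 after quantile normalisation, -0.36 with normexp, -0.084 with normexp and marked backgrounds replaced, -0.079 in the deposited values and -0.31 with slide as a block. VIT_11s0052g01230 read -1.61 with normexp and -0.42 with marked backgrounds replaced, and VIT_11s0052g01250 read 0.017 with normexp. Leaving out 1 array gave ranges of -0.80 to 0.27 for VIT_11s0052g01190, -0.87 to 0.27 for VIT_11s0052g01200, -0.32 to 0.34 for VIT_11s0052g01220, 0.10 to 1.60 for VIT_11s0052g01230, -0.32 to 0.23 for VIT_11s0052g01250, -0.47 to 0.39 for VIT_11s0052g01260, -1.11 to 0.50 for VIT_11s0052g01270, -0.99 to 0.28 for VIT_11s0052g01280 and -0.54 to 0.34 for VIT_11s0052g01300, and a median of -0.54 to 0.28. Causes were not tested. The headers give OX.NAC61 replicates 1 and 3 one slide and one position but separate days, so this record may hold an error.

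Over all features the count of calls was 0 with normexp (3306 at an unadjusted p below 0.05), which moved the median of all features to -0.50, and 5310 with marked backgrounds replaced, where 831 were higher, against 836 of 1843 as reported, and the median was -0.21. It was 1157 with the deposited values, 13 with scan day as a block, 589 with slide as a block, 657 at an adjusted p below 0.05, 1063 at a fold above 2, and with 1 array left out it ranged from 71, control replicate 2 being absent, to 3225, OX.NAC61 replicate 1 being absent. XTH15 was not called, leaving 0 other XTH genes, with normexp, without the filter on dim probes, with scan day or slide as a block, at an adjusted p below 0.05, at a fold above 2 and without any 1 array except OX.NAC61 replicate 1, where 1 was called. The xyloglucan list had 0 calls with normexp and with scan day or slide as a block, 6 with marked backgrounds replaced, and 0 to 8 with 1 array left out. NAC61 missed the threshold with normexp (0.88, limma adjusted p = 0.256), with scan day (1.23, limma adjusted p = 0.198) or slide as a block (1.60, limma adjusted p = 0.104), and ranged from 1.48 to 1.81 with 1 array left out, missing it without control replicate 2 (limma adjusted p = 0.125) or 3 (limma adjusted p = 0.105).

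With the replicate number as a block 1020 features, no member of the cluster and 0 other XTH genes were called. Of the other named calls, VIT_11s0052g01110 (limma adjusted p = 0.118) and the β-galactosidase VIT_09s0002g02120 (limma adjusted p = 0.108) were also lost. The numbers did not pair the arrays.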
